A study of Mus musculus with 16 samples.

Results

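The highest and the lowest exposure to diphenyl phosphate (DPhP) were set against each other in mouse liver RNA, without the untreated libraries. DPhP is a phosphate diester with 2 phenyl groups, formed in the body from aryl phosphate flame retardants and plasticisers. The members were the 8 libraries of 16 whose labels give 10 mg/L (C3, libraries C3-1 to C3-4) or 0.1 mg/L (C1, libraries C1-1 to C1-4). All animals were of the FVB/NCrl strain, and the study also held groups at 1 mg/L (C2) and at 0 mg/L (CTRL). The sources used here give no route, sex, age or length of exposure. Each group's livers went into 1 pool, of which its 4 libraries are repeat measurements. All p-values therefore measure the spread between libraries and not between animals, and pool and concentration cannot be told apart.

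The liver secretes acute phase proteins when inflammatory cytokines such as interleukin 6 reach it, and hepatocyte transcription factors of the C/EBP family take part in that response. It also answers to glucocorticoids, insulin and glucagon, which set the transcription of enzymes that make or store glucose. Secretory cells meet a load on the endoplasmic reticulum by making more chaperones, through ATF6, XBP1 and related factors. Intestinal digestive enzymes and mucins, by contrast, are made by gut epithelium and not by hepatocytes.

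Libraries held between 14434761 and 33387800 counts in C1 and between 18854980 and 33189711 in C3. Alb, the albumin gene of hepatocytes, was read at 42500 to 49300 CPM in C1 and 21500 to 42500 in C3. CPM are counts relative to a library's total, scaled by TMM to correct that total for composition. Xist was read in all 8 libraries, and the Y-linked gene Ddx3y had 0 counts in each. Library C3-4 stood apart. Malat1, a long RNA kept in the nucleus, was at 3720 CPM in C3-4 and at 2130 to 2280 in C3-1 to C3-3, against 2090 to 2790 in C1. Summed over 12 hepatocyte markers, the level was 46300 CPM in C3-4, 66200 to 75400 in C3-1 to C3-3 and 74700 to 83400 in C1. Alb was the largest part of that sum. The median log2 fold change of the 12 markers (C3 over C1) was -0.04, with 4 fitted above 0 and 8 below. Without C3-4 the median was 0.056. The share of counts in genes of a ribosomal RNA locus (Gm42418, Gm26917 and AY036118) was 1.60 to 6.02% in C1 and 0.907 to 3.19% in C3. The first principal component (30.9% of variance) separated C1, at -26.4 to -14.3, from C3, at 15.2 to 21.6. The next (20.5%) placed C3-4 at -35.6 and C3-1 to C3-3 at 10.6 to 16.8. The part of C3-4's makeup in any result was not tested, and values without it are given beside the results.

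Few genes separated the highest from the lowest exposure, and the largest differences were falls. Of 16462 genes tested, 185 (1.12%) passed edgeR's quasi-likelihood test at a Benjamini-Hochberg adjusted p under 0.05. Of these 95 (0.577%) were higher and 90 (0.547%) lower at 10 mg/L. A change of at least 2-fold was fitted for 87 (0.528%), 28 of them higher and 59 lower. Falls of 8-fold or more numbered 29, rises of that size 0, and 45 of the genes that fell had a mean under 1 CPM in C3. A gene near 0 in C3 could pass the count filter only through C1, so the count of large falls is a description. Libraries of C1 and C3 did not overlap for 1326 genes (8.05%), and for 179 of the 185 that passed.

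The count rested on which libraries were fitted. Without C3-4, 728 of 16610 genes passed (4.38%), 366 higher (2.2%) and 362 lower (2.18%). Of the 185, 178 passed in the same direction in both fits. The other 7 were Ppp1r3g, Lars2 and 5 short RNA or predicted genes (n-R5-8s1, Gm24270, Gm23935, Mir6236 and Gm15564). Lars2, annotated as the mitochondrial leucyl-tRNA synthetase gene, was at 2810 to 8000 CPM in C1 and 1520 to 3310 in C3, and the groups overlapped. Its edgeR adjusted p was 0.0171 with all 8 libraries and 0.102 without C3-4. Within C1, both Lars2 and Gm42418 of the ribosomal RNA locus were lowest in C1-2, at 2810 and 8170 CPM. Leaving out C1-1, C1-3, C1-4 or C3-2 left 87, 101, 108 or 111 genes. The common biological coefficient of variation, the fitted spread between libraries, was 0.142 with all 8 and 0.0961 without C3-4.

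**Figure D1:**
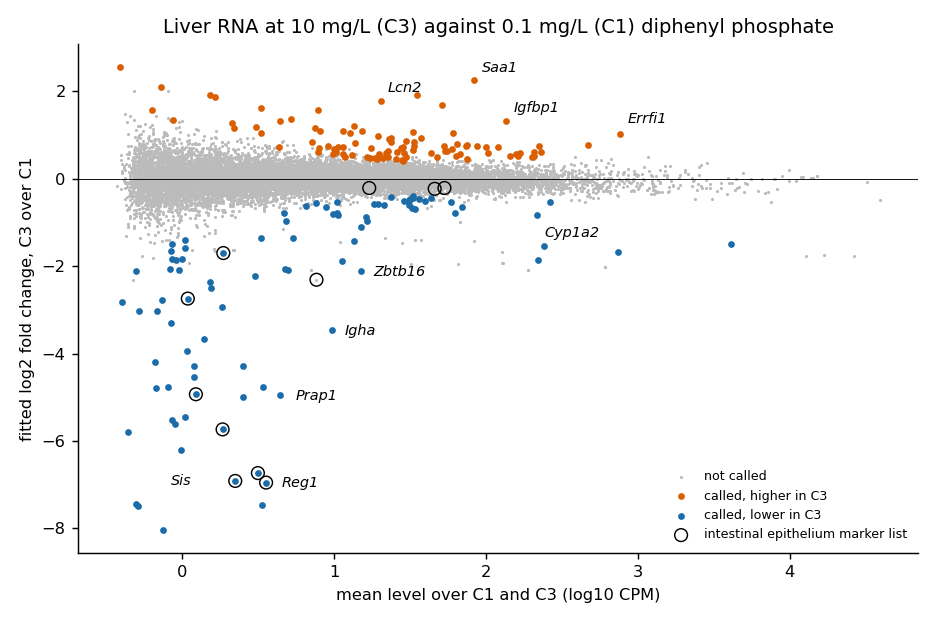
Fitted log2 fold change (C3 over C1) of each of 16462 genes against its mean level in log10 CPM over the 8 libraries, with genes that passed in colour and tested intestinal markers ringed. Rises stay below 3 on the log2 scale, while a column of weakly read genes, intestinal markers among them, reaches -8.03.

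Acute phase genes held 3 of the 12 largest rises at 10 mg/L, Saa1, Saa2 and Lcn2. Of 35 tested acute phase and metallothionein genes 7 rose and 0 fell (20% called, against 1.12% of all genes). Their median log2 fold change was 0.16, against 0.01 over all genes. Saa1, which encodes the acute phase protein serum amyloid A, was read at 31.4, 27.3, 27.2 and 30.6 CPM in C1-1 to C1-4. In C3-1 to C3-4 it was at 194, 120, 122 and 120 CPM. Every C3 library lay above every C1 library, and C3-1 was the highest. The means were 29.1 ± 2.20 and 139 ± 36.6 CPM (SD, n = 4), a log2 fold change of 2.25 ± 0.16 (SE; edgeR adjusted p = 5.83e-07), and 2.32 ± 0.17 without C3-4.

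Saa2, its neighbour and near copy, rose from 14.8 ± 1.93 to 55.8 ± 12.2 CPM (log2 fold change 1.91 ± 0.15, edgeR adjusted p = 1.27e-06). How reads that match both Saa genes were counted is not given, so the division between them is uncertain. Lcn2, encoding the iron-siderophore binding protein lipocalin 2, was at 9.41, 8.26, 9.36 and 9.37 CPM in C1 and at 42, 27.3, 24.6 and 31.4 CPM in C3. Its log2 fold change was 1.79 ± 0.15 (edgeR adjusted p = 4.34e-06), and 1.79 ± 0.16 without C3-4. The C/EBP transcription factor genes Cebpb and Cebpd rose by 0.68 ± 0.13 and 0.72 ± 0.16 on the log2 scale (edgeR adjusted p = 0.0151 and 0.0420). Orm2 and Orm3, near-identical orosomucoid genes, rose by 0.58 ± 0.13 and 0.56 ± 0.13 (edgeR adjusted p = 0.0373 and 0.0461). The calls of Cebpb, Cebpd, Orm2 and Orm3 ended in 5, 6, 6 and 6 of the 8 fits that left out 1 library, with adjusted p up to 0.0774, 0.215, 0.163 and 0.208. Those of Saa1, Saa2 and Lcn2 held in all 8.

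Without C3-4 the count of acute phase genes that rose was 15 of 35, with Il6ra the 1 that fell. In that fit 4.38% of all genes passed. Hp (haptoglobin) then had a log2 fold change of 0.67 (edgeR adjusted p = 1.27e-05), against 0.50 with all 8 libraries (adjusted p = 0.321). Hpx (hemopexin) had 0.55 (adjusted p = 0.000295), against 0.33 (adjusted p = 0.695). Of 39 tested complement and coagulation genes 0 passed with all 8 libraries, 4 had an unadjusted p under 0.05, DESeq2 called 1 and limma-voom 0, and 8 rose without C3-4. Outside the list, 2 genes were named after their values were seen. Il1b, the interleukin 1 beta gene of macrophages, went from 5.21 ± 0.563 to 11.1 ± 1.84 CPM (log2 fold change 1.10 ± 0.15, edgeR adjusted p = 0.000576). Nfkbia, the NF-kappaB inhibitor gene, rose by 0.43 ± 0.09 (adjusted p = 0.0337), and its call ended in 6 of the 8 fits with 1 library left out (adjusted p up to 0.140).

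Csf3r, the receptor gene for granulocyte colony-stimulating factor, rose from 1.35 ± 0.194 to 3.02 ± 0.637 CPM (log2 fold change 1.16 ± 0.22, edgeR adjusted p = 0.0147, and up to 0.0883 with 1 library left out). It is a neutrophil marker. Of 11 neutrophil markers 3 were tested and Csf3r alone passed (33.3% called, against 1.12% of all genes). S100a8 and S100a9 had log2 fold changes of 0.78 and 1.14 (edgeR adjusted p = 0.530 and 0.187), and the summed level was 2.32 to 4.35 CPM in C1, 5.16 to 7.71 in C3-1 to C3-3 and 8.82 in C3-4. None of 17 Kupffer cell and macrophage markers passed, 0 had an unadjusted p under 0.05 and DESeq2 and limma-voom called 0 each. Their summed level was 653 to 675 CPM in C1, 656 to 819 in C3-1 to C3-3 and 564 in C3-4. In bulk tissue, a change in the number of cells of a type and a change in RNA per cell cannot be told apart.

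The 250 bases before the start sites of Saa1 and Saa2 are shown because the pair moved together and its windows are nearly the same. They are RefSeq sequences on GRCm38.p6, 5′ to 3′, Saa1 at chr7:46742981-46743230 on the minus strand and Saa2 at chr7:46751583-46751832 on the plus strand. Capitals mark matches to the C/EBP motif TTGCNCAA, searched on both strands.
Saa1: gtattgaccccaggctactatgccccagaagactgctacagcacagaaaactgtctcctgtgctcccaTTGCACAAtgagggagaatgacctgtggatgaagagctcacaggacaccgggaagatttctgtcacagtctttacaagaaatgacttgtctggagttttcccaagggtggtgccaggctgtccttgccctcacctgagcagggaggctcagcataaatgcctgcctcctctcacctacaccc
Saa2: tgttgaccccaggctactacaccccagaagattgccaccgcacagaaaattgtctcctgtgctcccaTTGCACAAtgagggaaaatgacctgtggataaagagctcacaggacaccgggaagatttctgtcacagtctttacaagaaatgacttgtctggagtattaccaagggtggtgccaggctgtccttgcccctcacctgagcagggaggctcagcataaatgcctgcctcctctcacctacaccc
The windows were 95.6% identical over aligned bases, with 238 identical bases, 11 mismatches and 2 gap bases. The motif starts at -182 in Saa1 and -183 in Saa2, where -1 is the base next to the start site. It was found in 8 of 30 acute phase windows (26.7%) and in 857 of 32851 windows of all RefSeq promoters (2.61%). A match describes these letters and shows no binding.

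Among genes that glucocorticoids induce, most that passed were higher at 10 mg/L. This list is not separate from the others. It shares Lcn2 with the acute phase list, Gadd45g with the immediate early genes and Ddit4 with the p53 targets. Per1 is also in the clock list, and Bcl6 in that of the insulin, growth hormone and IGF axis. Of 23 tested glucocorticoid genes 7 rose and 2 fell (39.1% called, against 1.12% of all genes), with a median log2 fold change of 0.29. Gadd45g, a growth arrest gene, was at 22.5, 24.1, 27.9 and 22.7 CPM in C1 and at 53.7, 83.3, 69.7 and 104 CPM in C3. The groups did not overlap, and C3-4 was the highest. The log2 fold change was 1.68 ± 0.17 (edgeR adjusted p = 2.16e-05), and 1.51 ± 0.12 without C3-4. Per1, a clock gene with a glucocorticoid response element, was at 18.7, 23.4, 22 and 21.2 CPM in C1 and 34.1, 40.7, 40.7 and 64.9 in C3 (log2 fold change 1.08 ± 0.16, edgeR adjusted p = 0.00185). Ddit4, an inhibitor of mTORC1 signalling, rose by 1.32 ± 0.20 (adjusted p = 0.00185) and Tsc22d3, the glucocorticoid-induced leucine zipper gene, by 0.53 ± 0.10 (adjusted p = 0.0153). Errfi1, a feedback inhibitor of the EGF receptor, rose from 502 ± 24.0 to 1020 ± 95.2 CPM (log2 fold change 1.02 ± 0.13, edgeR adjusted p = 0.000225).

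Members of the same list went the other way or did not pass. Zbtb16, whose zinc finger protein PLZF is raised by glucocorticoids in several tissues, was at 23.4, 24.7, 23.9 and 26.3 CPM in C1 and at 5.12, 4.77, 5.07 and 7.72 CPM in C3. No C3 library came near the lowest of C1, and its log2 fold change was -2.11 ± 0.14 (edgeR adjusted p = 5.83e-07), and -2.29 ± 0.11 without C3-4. Bcl6, a transcriptional repressor gene, fell by 0.79 ± 0.16 on the log2 scale (edgeR adjusted p = 0.0195). Fkbp5, a chaperone of the glucocorticoid receptor, was at 26.9 to 32.3 CPM in C1 and 28.9 to 31.2 in C3 (log2 fold change 0.02 ± 0.10, edgeR adjusted p = 0.974). Nr3c1, the receptor gene itself, had 104 ± 1.26 and 98.4 ± 8.66 CPM (adjusted p = 0.877). The calls of Tsc22d3 and Bcl6 ended in 4 and 5 of the 8 fits with 1 library left out, with adjusted p up to 0.0964 and 0.0936. Those of Gadd45g, Per1, Ddit4, Errfi1 and Zbtb16 held in all 8.

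**Figure D2:**
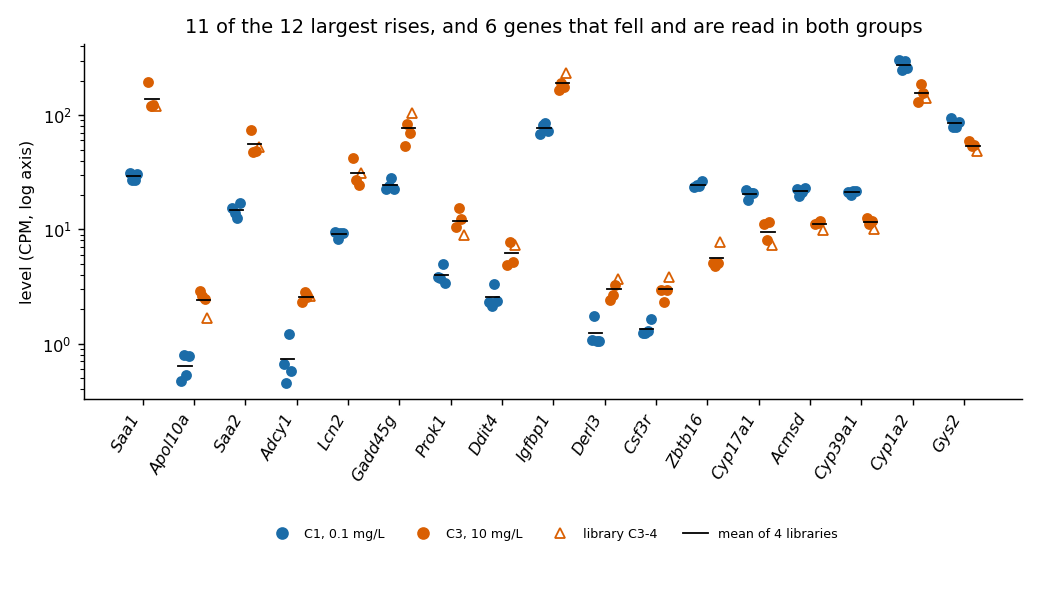
Level in CPM (log axis) in each library for 11 of the 12 largest rises and for 6 genes that fell and are read in both groups, with C1 in blue, C3 in orange, C3-4 as an open triangle and group means as bars. In each of the 17 genes the C1 and C3 libraries do not overlap, a condition of the rules that named most of them. In Saa1 library C3-1 lies highest at 194 CPM.

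Some early response and growth arrest genes passed, all of them higher at 10 mg/L. Of 28 tested immediate early genes, which are transcribed within minutes of many stimuli, 6 rose and 0 fell (median log2 fold change 0.31, with 6 members fitted below 0). The share called was 21.4%, against 1.12% of all genes. Fos was at 39.7, 46.3, 41.1 and 41.3 CPM in C1 and 51.8, 71.0, 62.5 and 78.0 in C3 (log2 fold change 0.64 ± 0.12, edgeR adjusted p = 0.0147). Myc, Ier2, Btg2 and Cyr61 rose by 0.70, 0.73, 0.58 and 0.59 on the log2 scale (edgeR adjusted p = 0.0202, 0.0230, 0.0407 and 0.0414). Of 24 tested p53 targets and growth arrest genes 3 rose and 0 fell (Ddit4, Btg2 and Trp53inp1), with a median log2 fold change of 0.043 and 10 members fitted below 0. Of this list 12.5% was called. Trp53inp1, a stress gene that p53 induces, rose from 90.7 ± 4.61 to 150 ± 27.1 CPM, with C3-4 highest at 190 (adjusted p = 0.00752). Cdkn1a, the p53 target that halts the cell cycle, had a log2 fold change of 0.86 (adjusted p = 0.163), and 0.91 without C3-4 (adjusted p = 0.0328). Adjusted p reached 0.094 for Fos, 0.116 for Myc, 0.132 for Ier2, 0.219 for Btg2 and 0.0548 for Trp53inp1 with 1 library left out.

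A minority of the endoplasmic reticulum and heat shock genes passed, and those that did were higher at 10 mg/L. Of 26 tested genes of the endoplasmic reticulum list 4 rose and 0 fell (15.4% called against 1.12% of all genes, median log2 fold change 0.14). Without C3-4, 13 rose (median 0.25), where 4.38% of all genes passed. Derl3, part of the machinery that exports misfolded proteins from the reticulum, was at 1.07, 1.75, 1.06 and 1.06 CPM in C1 and 2.43, 2.65, 3.28 and 3.69 in C3 (log2 fold change 1.28 ± 0.24, edgeR adjusted p = 0.0124). Herpud1, of the same machinery, rose from 183 ± 12.2 to 277 ± 19.7 CPM (log2 fold change 0.60 ± 0.11, edgeR adjusted p = 0.0126). The luminal protein genes Sdf2l1 and Creld2 rose by 0.74 ± 0.14 and 0.60 ± 0.11 (adjusted p = 0.0125 and 0.0147). With 1 library left out, adjusted p for these 4 reached 0.0948.

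Hspa5, which encodes the main luminal chaperone BiP, showed how much C3-4 weighed here. It was at 630, 629, 575 and 614 CPM in C1, at 969, 758 and 805 in C3-1 to C3-3 and at 510 in C3-4. Its log2 fold change was 0.31 ± 0.17 (edgeR adjusted p = 0.544), and 0.46 ± 0.08 without C3-4 (adjusted p = 0.000566). Xbp1, a transcription factor gene of this response, had 0.39 ± 0.11 (adjusted p = 0.128), and 0.44 ± 0.08 without C3-4 (adjusted p = 0.000247). In the cytosol, 3 of 18 tested heat shock genes rose and 0 fell (16.7% called, against 1.12% of all genes). Hspa1a, an inducible HSP70 gene, was at 9.51, 10.2, 10.7 and 8.4 CPM in C1 and 15.1, 24.4, 24.2 and 19.3 in C3 (log2 fold change 1.09 ± 0.15, edgeR adjusted p = 0.000799, and 1.12 ± 0.14 without C3-4). Its near copy Hspa1b rose by 0.92 ± 0.13 (adjusted p = 0.00116), and the division of reads between them is uncertain. Hsph1, a co-chaperone of HSP70, rose by 0.45 ± 0.10 (adjusted p = 0.0407, and up to 0.229 with 1 library left out).

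Windows before Derl3 and Creld2 are shown because both genes rose and both hold the endoplasmic reticulum stress element, the motif that ATF6 binds together with NF-Y. Derl3 is at chr10:75893148-75893397 and Creld2 at chr15:88819396-88819645, both on the plus strand of GRCm38.p6 (RefSeq). Both strands were searched for CCAAT followed, after 9 bases of any kind, by CCACG. Capitals mark the match, which lies on the opposite strand in both windows.
Derl3: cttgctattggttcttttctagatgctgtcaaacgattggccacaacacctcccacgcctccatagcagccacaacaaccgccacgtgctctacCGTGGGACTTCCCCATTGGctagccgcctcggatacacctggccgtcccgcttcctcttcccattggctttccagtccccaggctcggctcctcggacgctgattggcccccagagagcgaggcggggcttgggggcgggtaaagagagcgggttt
Creld2: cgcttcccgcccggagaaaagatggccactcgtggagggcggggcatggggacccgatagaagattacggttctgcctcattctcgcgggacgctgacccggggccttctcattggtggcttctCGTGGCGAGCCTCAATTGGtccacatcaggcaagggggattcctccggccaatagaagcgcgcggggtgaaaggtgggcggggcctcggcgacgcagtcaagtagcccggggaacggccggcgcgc
The matches start at -156 and -126. The element was in 9 of 22 windows of the list (40.9%) and in 37 of 32851 windows of all promoters (0.113%). Of the 4 genes that rose with all 8 libraries, Derl3 and Creld2 held it and Herpud1 and Sdf2l1 had no match in this window.

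Genes of glucose, insulin and growth hormone action moved in both directions. Of 33 tested genes of glucose and glycogen metabolism 3 rose and 1 fell, and of 20 tested genes of the insulin, growth hormone and IGF axis 3 rose and 2 fell. The shares called were 12.1% and 25%, against 1.12% of all genes. Igfbp1, a secreted IGF binding protein that insulin represses, is in both lists. It was at 68.7, 82.4, 85.7 and 71.9 CPM in C1 and 167, 190, 177 and 235 in C3 (log2 fold change 1.32 ± 0.13, edgeR adjusted p = 2.25e-05, and 1.21 ± 0.08 without C3-4), and the groups were far apart. Gys2, liver glycogen synthase, fell from 84.6 ± 7.76 to 54.0 ± 4.65 CPM (log2 fold change -0.65 ± 0.11, edgeR adjusted p = 0.00440).

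Ppp1r3g, which brings a protein phosphatase to glycogen, was at 11.6 to 14.8 CPM in C1 and 15, 30.7, 23 and 34.1 in C3. It had a log2 fold change of 0.98 ± 0.20 (edgeR adjusted p = 0.0198), and 0.81 ± 0.23 without C3-4 (adjusted p = 0.108). Foxo1, a transcription factor restrained by insulin, fell by 0.44 ± 0.10 on the log2 scale (adjusted p = 0.0338). Bcl6, also in the insulin, growth hormone and IGF list, fell as given above. Onecut1, the hepatocyte factor HNF6, rose by 0.85 ± 0.11 (adjusted p = 0.000521) and Socs2, an inhibitor of growth hormone signalling, by 0.65 ± 0.10 (adjusted p = 0.00185). The calls of Foxo1 and Ppp1r3g ended in 6 and 5 of the 8 fits that left out 1 library, with adjusted p up to 0.179 and 0.108. In the clock list, 22 were tested and 13.6% called, against 1.12% of all genes. Noct (a phosphatase with a daily rhythm) rose by 0.74 ± 0.13, Per1 rose as given above, and Usp2, a deubiquitinase gene, fell by 0.51 ± 0.10. Their adjusted p were 0.00874 for Noct and 0.0147 for Usp2, and reached 0.0645 and 0.0953 with 1 library left out.

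Other large rises belonged to no shared list. Apol10a, of the apolipoprotein L family, rose from 0.641 ± 0.166 to 2.41 ± 0.519 CPM (log2 fold change 1.92 ± 0.28, edgeR adjusted p = 0.00128). Adcy1, an adenylate cyclase gene, rose by 1.87 ± 0.28 (adjusted p = 0.00140) and Prok1, encoding the secreted peptide prokineticin 1, by 1.58 ± 0.18 (adjusted p = 9.92e-05). The calls of these 3 genes held with each library left out. Apol10a in C1-1 and Adcy1 in C1-2 lay below the filter level of 0.503 CPM, while all their C3 libraries lay above it. Both passed the count filter through C3 alone, so their folds and p-values are a description. Of genes named after their values were seen, Csad, an enzyme gene of taurine synthesis, rose from 25.7 ± 1.74 to 48.7 ± 5.39 CPM (log2 fold change 0.93 ± 0.11, edgeR adjusted p = 0.000109). Aacs, acetoacetyl-CoA synthetase, and Pnpla3, a lipid droplet protein gene, rose by 0.56 ± 0.10 and 0.58 ± 0.12 (adjusted p = 0.0118 and 0.0230, and up to 0.0895 and 0.146 with 1 library left out). Slc16a6, of the monocarboxylate transporter family, rose by 0.74 ± 0.14 (adjusted p = 0.0125, and up to 0.0875).

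In bile acid and in xenobiotic metabolism, single genes passed in each direction. Of 27 tested bile acid genes 1 rose and 1 fell (7.41% called, against 1.12% of all genes). Cyp7a1, the rate-limiting enzyme of bile acid synthesis, was at 162 to 171 CPM in C1 and 263, 221, 239 and 222 in C3 (log2 fold change 0.49 ± 0.11, edgeR adjusted p = 0.0392). Its call ended in 7 of the 8 fits that left out 1 library, with adjusted p up to 0.188. Cyp39a1, an oxysterol 7-alpha-hydroxylase gene, was at 21.2, 19.9, 21.7 and 21.5 CPM in C1 and 12.7, 11.2, 11.8 and 10.1 in C3 (log2 fold change -0.88 ± 0.11, edgeR adjusted p = 0.000211). Of 33 tested CAR and PXR response genes 1 rose and 1 fell (6.06%), with a median log2 fold change of -0.20. Alas1, the first enzyme of heme synthesis, rose from 343 ± 15.5 to 589 ± 76.4 CPM (log2 fold change 0.78 ± 0.13, edgeR adjusted p = 0.00371, and 0.69 ± 0.08 without C3-4). Gsta1, a glutathione S-transferase gene with near-identical relatives, fell by 1.34 ± 0.23 on the log2 scale (adjusted p = 0.00729). The classical targets Cyp2b10 and Cyp3a11 had log2 fold changes of -0.22 and -0.18 (edgeR adjusted p = 0.541 and 0.827).

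Among 32 tested pericentral genes, which are active in hepatocytes around the central vein, 1 rose (Cyp7a1) and 1 fell, with a median log2 fold change of -0.18. The share called was 6.25%, against 1.12% of all genes. Without C3-4, 3 pericentral genes rose and 9 fell, where 4.38% of all genes passed. Cyp1a2, a cytochrome P450 of caffeine and arylamine oxidation, was at 303, 248, 296 and 256 CPM in C1 and 131, 189, 157 and 141 in C3 (log2 fold change -0.84 ± 0.13, edgeR adjusted p = 0.00344, and -0.79 ± 0.11 without C3-4). All C3 libraries lay below all C1 libraries. Cyp2e1, the ethanol-oxidising P450, had means of 3564 and 2598 CPM (log2 fold change -0.46, edgeR adjusted p = 0.211), and -0.36 without C3-4 (adjusted p = 0.00668). Of 37 tested genes that are higher in female than in male mouse liver, 0 rose and 2 fell (5.41% called). Cyp17a1, a steroid 17-alpha-hydroxylase gene, was at 22.2, 18, 20.9 and 20.8 CPM in C1 and 11.2, 8.10, 11.6 and 7.33 in C3 (log2 fold change -1.10 ± 0.15, edgeR adjusted p = 0.000521, and -0.99 ± 0.12 without C3-4). Atp6v0d2, a subunit gene of the vacuolar proton pump, fell by 0.83 ± 0.15 (adjusted p = 0.0109, and up to 0.0664 with 1 library left out).

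The 12 largest falls with at least 2 CPM in each group, a rule added after the values were seen, held 8 genes described under other groups and Acmsd, G0s2, Plac8 and Mcm6. Acmsd, an enzyme gene that steers tryptophan breakdown away from NAD, fell from 21.7 ± 1.57 to 11.1 ± 0.837 CPM (log2 fold change -0.97 ± 0.11, edgeR adjusted p = 7.65e-05). G0s2, an inhibitor of adipose triglyceride lipase, was at 71.8 to 85.3 CPM in C1 and 60.8, 44.5, 49.5 and 28.9 in C3 (log2 fold change -0.78 ± 0.17, edgeR adjusted p = 0.0321). Plac8 fell by 0.97 ± 0.19 and Mcm6, a subunit gene of the replicative helicase, by 0.77 ± 0.16 (adjusted p = 0.0147 and 0.0246). Mcm6 was the 1 gene of 27 tested cell cycle genes to pass (3.7% called, against 1.12% of all genes). Adjusted p reached 0.132 for G0s2, 0.0983 for Plac8 and 0.146 for Mcm6 with 1 library left out. Of genes picked by eye, Ren1, the renin gene, fell from 4.74 ± 0.788 to 1.83 ± 0.336 CPM (log2 fold change -1.36 ± 0.20, edgeR adjusted p = 0.00134). Cyp4a32, a fatty acid omega-hydroxylase gene with close relatives, fell by 0.69 ± 0.11 (adjusted p = 0.00344). It was the 1 of 32 tested PPARalpha targets to pass (3.12% called). Id1, a BMP target in hepatocytes, and Hba-a2, an alpha globin gene with a near copy, fell by 0.61 ± 0.13 and 0.53 ± 0.12 (adjusted p = 0.0309 and 0.0460, and up to 0.149 and 0.267 with 1 library left out).

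The largest falls of all were of genes of the intestinal epithelium, read at a few CPM at 0.1 mg/L and close to 0 at 10 mg/L. Of 22 intestinal markers 11 were tested, and 7 of these fell and 0 rose (63.6% called, against 1.12% of all genes). Alpi, Cdh17, Rbp2, Reg1, Sis and Vil1, 6 of the 11, passed the count filter through C1 alone, so a member with such levels had to differ and the count is a description. The 11 that were not tested were too weakly read to pass the filter, and 9 of the 22 had 0 counts in all C3 libraries, against 0 of the 22 in all C1 libraries. Those 9 were Cdx1, Cdx2, Fabp6, Guca2a, Guca2b, Lct, Mep1a, Reg3b and Reg3g, of which Cdx2, a defining transcription factor of gut epithelium, reached at most 0.193 CPM in C1. Anpep, Fabp2 and Lgals4 did not pass and made up most of the summed level. The other 19 markers summed to 73.5, 33.7, 40.3 and 30.7 CPM in C1 and to 4.40, 3.80, 4.32 and 4.30 in C3. Dmbt1, at 36.4 CPM in C1-1 and 2.56 to 6.39 in the other C1 libraries, made C1-1 the highest.

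Reg1, encoding a secreted lectin of gut and exocrine pancreas, was at 8.61, 7.07, 6.57 and 6.13 CPM in C1 and at 0.0936, 0, 0.0994 and 0 in C3. That was 596 counts against 5, a log2 fold change of -6.95 ± 0.37 (edgeR adjusted p = 2.54e-08). Sis, the brush border enzyme sucrase-isomaltase, was at 5.93, 3.00, 4.53 and 4.30 CPM in C1 and at 0, 0, 0.149 and 0 in C3. Its 379 counts against 3 made a ratio of 148 (95% exact binomial interval 50.4 to 723, counting error only; edgeR adjusted p = 1.18e-06). Alpi and Akp3, intestinal alkaline phosphatases, went from 6.25 ± 2.07 to 0.0610 ± 0.0728 CPM and from 6.55 ± 1.30 to 0.257 ± 0.260 (edgeR adjusted p = 5.83e-07 and 1.01e-05). Rbp2, the retinol binding protein of enterocytes, had 310 counts against 6 (log2 fold change -5.73 ± 0.41, edgeR adjusted p = 6.32e-07).

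The rest of the 12 largest falls were of the same kind of low, separated levels. Like the 6 list markers above, Prap1, Muc13, Akp3, Adh6a, Sult6b2, Krt20, S100g and Clca4b had C3 libraries below the filter level of 0.503 CPM. They passed the count filter through C1 alone, so their folds and p-values are a description. Prap1, encoding a secreted protein of gut and uterus epithelium, was at 9.88, 8.6, 7.7 and 8.06 CPM in C1 and at 0.250, 0.289, 0.447 and 0.132 in C3 (log2 fold change -4.95 ± 0.24, edgeR adjusted p = 2.06e-08, and -4.74 ± 0.24 without C3-4). Muc13, a membrane mucin, had 525 counts in C1 and 3 in C3. Adh6a (an alcohol dehydrogenase), Sult6b2 (a sulfotransferase), Cdh17 (the liver-intestine cadherin), Krt20 (a keratin of gut epithelium) and S100g (a calcium binding protein of duodenum) had log2 fold changes between -5.45 and -4.28, with edgeR adjusted p of at most 1.54e-05. Clca4b, of the calcium-activated chloride channel regulator family and named after its value was seen, had 116 counts in C1 and 0 in C3. Against a floor of 3 counts over the group it was at least 45.4-fold lower (edgeR adjusted p = 6.39e-05). The markers Vil1 (villin) and Slc5a1 (a sodium-glucose transporter), also named after their values were seen, had log2 fold changes of -2.74 ± 0.41 and -1.70 ± 0.24 (edgeR adjusted p = 0.00158 and 0.000822).

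Markers of neighbouring cell types were read beside these. Of 9 tested cholangiocyte (bile duct) markers 1 fell (11.1% called, against 1.12% of all genes). This was Epcam, which passed the count filter through C1 alone, with C3-1 below the filter level. It fell by 1.39 ± 0.31 on the log2 scale (edgeR adjusted p = 0.0378, and up to 0.231 with 1 library left out). Krt19 had a log2 fold change of -1.07 ± 0.32 (adjusted p = 0.165), and -1.14 ± 0.33 without C3-4 (adjusted p = 0.0457). Spp1 and Sox9 had 0.21 and -0.39 (adjusted p = 0.581 and 0.601). Of 15 exocrine pancreas markers 2 were tested and 0 passed, 1 had an unadjusted p under 0.05, DESeq2 and limma-voom called 0, and Cpa1, Try4 and Try5 had 0 counts in all 8 libraries. Without C3-4, 3 were tested, 1 fell and 0 rose, where 4.38% of all genes passed. Amy2a5 was the 1 that fell (log2 fold change -5.22, edgeR adjusted p = 0.000117), at 0.377 to 1.01 CPM in C1 and 0 to 0.0878 in C3. The summed level of the 15 markers, mostly Cela1, was 18.3 to 22.4 CPM in C1, 15.5 to 20.4 in C3-1 to C3-3 and 13.4 in C3-4. The part of other tissue in the RNA pools was not tested.

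**Figure D3:**
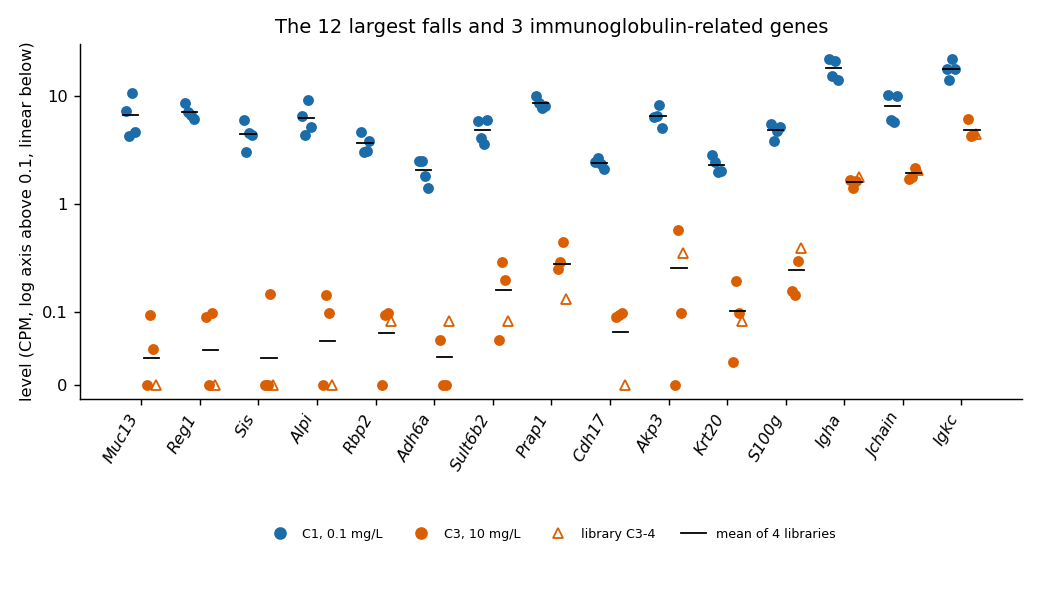
Level in CPM in each library (log axis above 0.1, linear below) for the 12 largest falls and for Igha, Jchain and Igkc, with C1 in blue, C3 in orange, C3-4 as an open triangle and group means as bars. All C1 libraries lie above all C3 libraries in the 15 genes, which the rule for the 12 largest falls required. Muc13, Reg1, Sis and Alpi have C3 libraries at 0.

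The 250 bases before Sis are shown because it is the classical intestinal gene of the set. They lie at chr3:72967864-72968113 on the minus strand of GRCm38.p6 (RefSeq), and capitals mark TTTATG, the core of the element through which CDX2 acts on this promoter.
Sis: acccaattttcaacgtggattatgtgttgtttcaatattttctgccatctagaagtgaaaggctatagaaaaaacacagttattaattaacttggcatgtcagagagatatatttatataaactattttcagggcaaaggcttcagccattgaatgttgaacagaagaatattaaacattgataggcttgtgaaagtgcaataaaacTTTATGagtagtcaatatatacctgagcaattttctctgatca
The match starts at -43. The motif, searched on both strands, was in 4 of 18 intestinal marker windows (22.2%) and in 3536 of 32851 of all promoters (10.8%), a short motif that many windows hold. It was also in 8 of 30 acute phase windows (26.7%), so the share is not particular to the intestinal list.

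Some antibody-related genes of plasma cells fell as well, while others of the list and most other B cell markers did not pass the test. Of 10 tested B and plasma cell markers 3 fell and 0 rose (30% called, against 1.12% of all genes). Igha, the heavy chain constant gene of immunoglobulin A, the antibody class of mucosa, was at 21.6, 15.3, 20.7 and 14 CPM in C1 and at 1.65, 1.4, 1.64 and 1.76 in C3. Every C1 library was far above every C3 library (log2 fold change -3.47 ± 0.18, edgeR adjusted p = 2.06e-08). Igha was named after its value was seen and is not in the list. Jchain, which joins the units of polymeric IgA and IgM, was at 10.2, 6, 5.74 and 10.0 CPM in C1 and 1.69, 1.78, 2.14 and 2.06 in C3 (log2 fold change -2.09 ± 0.22, edgeR adjusted p = 3.69e-05). Igkc, the kappa light chain gene, fell from 17.8 ± 3.16 to 4.78 ± 0.857 CPM (log2 fold change -1.88 ± 0.16, edgeR adjusted p = 4.11e-06, and -1.83 ± 0.15 without C3-4). Vpreb3, of the pre-B cell receptor family, passed the count filter through C1 alone and fell by 1.49 ± 0.31 (adjusted p = 0.0227, and up to 0.148 with 1 library left out). Ighm, the IgM heavy chain gene, and the B cell surface gene Ms4a1 had log2 fold changes of 0.24 and 0.14 (edgeR adjusted p = 0.617 and 0.928). Ighd, the IgD heavy chain gene, had -0.018 (adjusted p = 0.989). Iglc2 and Mzb1 were too weakly read to be tested, and their groups overlapped. They were at 0.151 to 0.676 and 0.17 to 0.368 CPM in C1, and at 0.145 to 0.571 and 0.176 to 0.468 in C3. The summed level of the list was 35.2 to 43.7 CPM in C1, 18.4 to 21.9 in C3-1 to C3-3 and 22.4 in C3-4.

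Many lists showed no gene past the threshold. Of 57 lists, 27 had 0 members called by edgeR, 18 of them lists other than cell type markers. Among the 18 were fatty acid beta-oxidation (41 tested), oxidative phosphorylation (58), cytosolic ribosomal proteins (62), cholesterol synthesis (26), type I interferon response (39) and thyroid hormone action (13). The 27 were picked for their 0 calls, and with 1.12% of all genes called a short list can hold 0. Over the 655 distinct tested members of the 27 lists, limma-voom called 0, and 57 (8.7%) had an unadjusted p under 0.05, against 10.4% of all genes. DESeq2 called 11 (1.68%, against 2.11% of all genes) and edgeR 29 without C3-4 (4.43%, against 4.38%), so the shares of these lists were near those of all genes. A p that misses the threshold does not show equal levels. For Cyp4a10, a standard PPARalpha target, the means were 252 and 258 CPM (log2 fold change 0.04 ± 0.17, edgeR adjusted p = 0.969). Fasn (fatty acid synthase) had a log2 fold change of 0.23 ± 0.15 (adjusted p = 0.653).

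**Figure D4:**
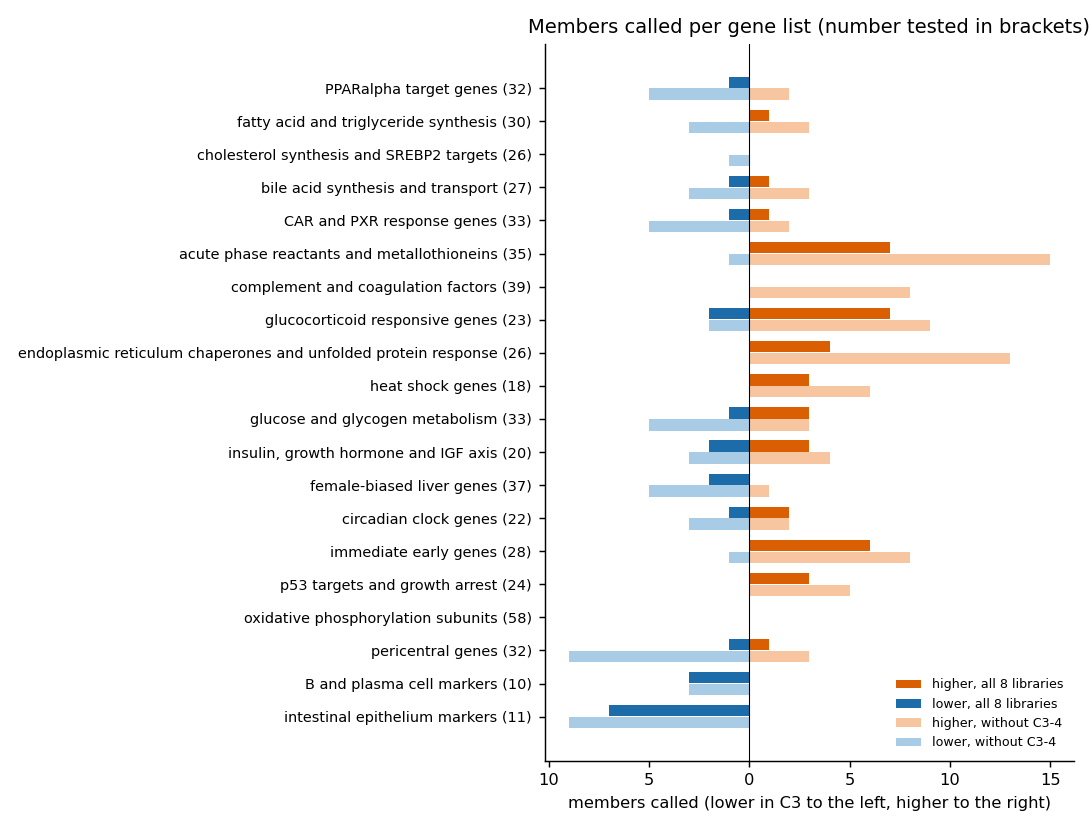
Number of members called higher (right, orange) or lower (left, blue) in C3 for 20 gene lists, with all 8 libraries in dark and without C3-4 in pale bars, and the number tested in brackets. Acute phase genes extend from 7 to 15 rises without C3-4, and endoplasmic reticulum genes from 4 to 13.

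The levels of the same genes at 0 and 1 mg/L are given as a description, scaled over all 16 libraries. For the 95 genes higher in C3 than in C1, the mean of CTRL lay between the means of C1 and C3 for 51, above both for 37 and below both for 7. It was nearer to C3 for 61. For the 90 lower genes CTRL lay between for 74, above both for 4 and below both for 12, and it was nearer to C3 for 44. The mean of C2 lay between for 67 of the 95 higher genes, above both for 6 and below both for 22, and was nearer to C1 for 56. Among the 90 lower genes C2 lay between for 50, above both for 1 and below both for 39, and was nearer to C3 for 73. Igfbp1 was at 198 to 252 CPM in CTRL, 67.9 to 85.1 in C1, 58.4 to 103 in C2 and 163 to 229 in C3. Zbtb16 was at 2.89 to 4.61 CPM in CTRL, 23.1 to 25.8 in C1, 6.30 to 12.3 in C2 and 4.72 to 7.53 in C3. In both genes C1 lay away from CTRL and C3 lay closer to it, while C2 overlapped C1 for Igfbp1 and C3 for Zbtb16.

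Saa1 had another order, with 36.7 to 48.8 CPM in CTRL, 27.0 to 31.0 in C1, 9.61 to 18.4 in C2 and 117 to 190 in C3. For Saa1 the C3 libraries lay above those of all other groups. Reg1 was at 1.13 to 2.21 CPM in CTRL, 6.02 to 8.50 in C1, 0 to 0.0525 in C2 and 0 to 0.0991 in C3, so that C1 was the highest and C2 and C3 overlapped near 0. Igha was at 4.89 to 10.1 CPM in CTRL, 13.8 to 21.3 in C1, 0.475 to 2.26 in C2 and 1.38 to 1.71 in C3. Cyp17a1 was at 21.7 to 26.7 CPM in CTRL and 17.9 to 21.9 in C1, which overlapped, and at 7.07 to 14.9 in C2 and 7.15 to 11.6 in C3, which also overlapped.

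**Figure D5:**
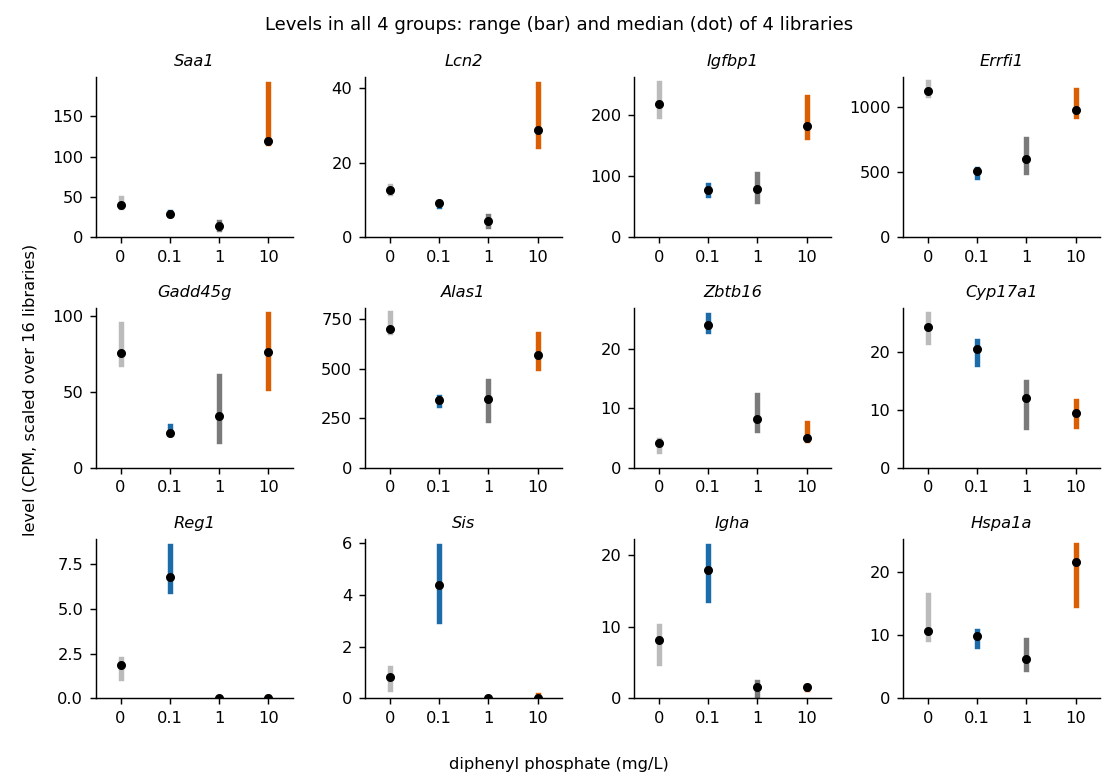
Levels of 12 genes in CPM (linear axes, scaled over 16 libraries) against DPhP in mg/L at 0, 0.1, 1 and 10, drawn as equal steps, with bars for the range and dots for the median of 4 libraries. Igfbp1, Errfi1, Gadd45g and Alas1 are lower at 0.1 and 1 mg/L than at 0 mg/L, with overlapping ranges at 0.1 and 1 mg/L, Saa1 and Lcn2 are highest at 10 mg/L, and Reg1, Sis and Igha are highest at 0.1 mg/L.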

How the data were processed

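Per the labels' protocols, a directional NEBNext kit was used on poly(A) RNA of pooled livers. The submitters' processing notes list GRCm38, with STAR 2.5.2b beside bcl2fastq 2.19.1.403 and FastQC 0.11.5. Nothing in the sources used here says how reads were counted or with which annotation, strand setting or filter, so reads shared by copies, overlapping genes and antisense partners cannot be assigned with certainty. The authors deposited raw counts of reads per gene, not normalised, for 53372 gene identifiers, of which GENCODE M21 held 53267.

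The 8 libraries of C1 and C3 were filtered with filterByExpr (16462 of 30492 genes with a count), TMM-scaled and fitted in edgeR 4.0.16 in R 4.3.3 (glmQLFit, robust, and glmQLFTest, 6 residual degrees of freedom, Benjamini-Hochberg adjusted p under 0.05). Errors of log2 fold changes are SE from the F statistic. No library was taken for a copy of another, since chi-square per degree of freedom was 5.45 to 106 over pairs of the same group. Intervals and floors cover counting error only. On simulated counts the test was checked for known changes.

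Members and lists were chosen with earlier results of these data known. Named genes were the 12 largest rises and 12 largest falls among called genes with at least 2 CPM in 1 group, no overlap, the same call without C3-4 and a symbol that is no predicted model, up to 4 called members of each list described, up to 5 in each direction whose call ended without C3-4, and Alb, Xist, Malat1 and Neat1. Some genes that the rule names were left out of the text and of counts over named genes. Genes outside the rule are named as such or illustrate a list. The replicate numbers were not taken to pair the libraries, and whether they do is not settled. Alternatives were other scalings and filters, DESeq2 1.42.0, limma-voom (limma 3.58.1), all 16 libraries, a replicate block and leaving out each library.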

Additional observations from a re-analysis of the deposited data

Results flagged for a closer look

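Among 185 groups of 4 libraries of named genes, 18 held a library whose gap to the nearest other exceeded Dixon's 95% critical value, and 9 of these were C3-4. Chance flags about 1 in 20 groups. In C3-4, Malat1 stood at 3720 CPM, Xist at 1850 and Neat1 at 1750, above the rest of C3 at 2130 to 2280, 998 to 1100 and 986 to 1070. C3-4 was also highest for Zbtb16 at 7.72 CPM, Trp53inp1 at 190 and Orm3 at 30.3. It was lowest for Creld2 at 21.5 CPM, Hsph1 at 77.8 and Cdh17 at 0.

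Library C3-1 was highest for Saa1 at 194 CPM and Igkc at 6.06, and lowest for Rbp2 at 0. Library C3-3 was the 1 C3 library with Sis counts, at 0.149 CPM. In C1, Lcn2 was lowest in C1-2 at 8.26 CPM, Derl3 highest in C1-2 at 1.75, Csf3r highest in C1-4 at 1.64, Cyp7a1 lowest in C1-3 at 162 and Nr3c1 lowest in C1-2 at 102. In none of the called genes among these did the flagged library cross into the other group. For those named as largest rises or falls, no overlap was a condition of the rule.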

How the results depend on the processing

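Against 185 genes called, 439 were called with no filter on low counts, 121 with at least 5 CPM in 4 libraries, 348 by DESeq2 and 282 with the replicate block. Leaving out 1 library gave 87 to 728. Of genes called at least 2-fold (87), 216 were counted with no filter and 30 with at least 5 CPM, and 65 to 134 with 1 library left out. Genes whose libraries do not overlap (1326) numbered 2593 without C3-4. The cause was not tested, beyond the number of genes and libraries that each setting holds. The other scalings and limma-voom gave 181 to 188 calls, protein-coding genes alone 186 and all 16 libraries 155. The replicate numbers were not taken as pairs. Same-numbered libraries deviated with correlations of 0.141, -0.0214, -0.0129 and 0.197, and C1-2 and C1-3 correlated best with another number. With the block, the call of Mir6236 ended among the 81 named genes called, and 80 held.

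Of these 81 genes, 45 held their call with each library left out and 36 lost it at least once. All 81 held under DESeq2. With all 16 libraries in the model 20 lost the call. Among them were Fos, Myc, Ier2, Cebpb and Orm2 (edgeR adjusted p = 0.273, 0.269, 0.411, 0.304 and 0.452). Btg2, Ppp1r3g and Orm3 were also among the 20, and Orm3 lost its call under limma-voom and upper quartile scaling too. Direction turned without C3-4 for Xist (log2 fold change -0.084, up to 0.261 with another library left out) and Malat1 (-0.13, up to 0.169). It turned for Fkbp5 without C1-1 (-0.002), C1-4 (-0.03) or C3-2 (-0.009), with up to 0.055 otherwise. None of the 3 was called. The share of calls that were higher was 51.4% in all 8 libraries, 61.2% with at least 5 CPM and 40.6% with all 16. Depth limits the genes near 0 in C3, where a few counts set the fold.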
